A study of Mus musculus with 6 samples.

Results

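The proteasome genes were taken as the protein-coding mouse genes whose symbol begins with Psma, Psmb, Psmc, Psmd, Psme, Psmf or Psmg followed by a number. This gave 50 of the 24376 gene IDs in the tables. All 50 passed the filter on low counts. One of them, Psmc3ip, encodes a meiotic recombination protein and no part of the proteasome. It was matched by the start of its symbol and is given apart from the other 49.

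The proteasome is the protease complex that degrades proteins tagged with ubiquitin. Its barrel, the 20S core, is made of rings of alpha subunits, which gate the entry, and rings of beta subunits, some of which carry the proteolytic sites. The 19S regulatory particle caps the barrel, binds and removes ubiquitin, and unfolds the substrate with a ring of ATPases. In cells exposed to interferon, and in many blood cells, the catalytic beta subunits can be replaced by the immunoproteasome subunits Psmb8, Psmb9 and Psmb10. Maturing red cells rely on the complex during the loss of organelles and of much of their proteome.

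RNA was sequenced from 6 libraries of E14.5 fetal liver blood progenitors of C57BL/6 mice. The cells were infected right after isolation with a retrovirus that carried a control short hairpin RNA (shRNA, a hairpin that lowers the transcripts it pairs with) or one against Samd14, and were cultured for 3 days. From each culture 200000 cells without the surface proteins CD71 and Ter119, which mark maturing erythroid cells, were lysed, so the values do not describe the later erythroid cells of the cultures. Each group, control and shSamd14, held 3 libraries, and both groups had been infected, cultured and selected alike. Nothing in the labels ties a library to its own litter or culture dish, so p-values measure the spread between these libraries, which may be technical, and the hairpin against Samd14 is not compared with another hairpin against it here.

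The libraries held 20584169 to 26462797 estimated counts. Samd14 itself had 82.0, 82.1 and 83.8 CPM (counts scaled to library size) in control and 41.9, 38.8 and 39.4 CPM in shSamd14, a log2 fold change of -1.05 (SE 0.06, edgeR adjusted p = 4.69e-07). Marker lists were chosen with earlier results of these data known. In them, 4 of 10 tested megakaryocyte genes (Pf4, Gp5, Vwf, Treml1) and 1 of 10 erythroid genes (Hemgn) were higher at an adjusted p under 0.05 in edgeR. Of all tested genes, 2.58% passed in either direction. The megakaryocyte markers summed to 387 to 460 CPM in control and 504 to 523 CPM in shSamd14, and the erythroid markers to 2556 to 3266 and 3345 to 3799 CPM. No gene of the neutrophil, macrophage, mast cell, lymphoid, hepatocyte or endothelial lists passed, and the summed levels of the groups overlapped for each; C1qa, Mcpt4, Tpsab1, Serpina1a and Cldn5 were at 0 in every library. In bulk RNA fewer cells of a type and less RNA per cell cannot be told apart. The part of these marker shifts in the values below was not tested.

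No proteasome gene passed the test. Of the 49 genes, 0 had an edgeR adjusted p under 0.05 (quasi-likelihood test, adjusted after Benjamini and Hochberg across 12670 genes), a threshold that 2.58% of all tested genes passed. At an unadjusted p under 0.05 there were 5, Psmd3, Psmd8, Psmf1 and Psmd5 with higher and Psmd9 with lower values in shSamd14, while 15% of all tested genes were under it. Leaving out 1 library moved this count to between 2 (without shSamd14 replicate 1 or 2) and 7 (without shSamd14 replicate 3), and Psmd3 alone was in it each time. DESeq2 and limma on log2(TPM + 1) also called 0 (of 49 and 48 tested), with 3 and 5 genes at an unadjusted p under 0.05. The median absolute log2 fold change was 0.05 over the 49 genes, 0.10 over all tested genes and 0.06 over the 1555 tested genes with a mean of at least 100 TPM (counts scaled to gene length and library size).

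Most intervals were narrow. For the 46 genes with a mean of at least 10 TPM, the 95% interval of the fold change, not adjusted for the number of genes, reached no lower than 0.809 (Psmd9) and no higher than 1.31 (Psmb8). All 46 intervals lay within 1.5-fold in both directions. The 7 that reached farthest were those of Psmb8, Psmb9, Psmb10, Psmd3, Psmf1, Psmg3 and Psmg4. The remaining 3 genes, Psma8, Psmb11 and Psme2b, were under 10 TPM and had wider intervals.

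**Figure D1:**
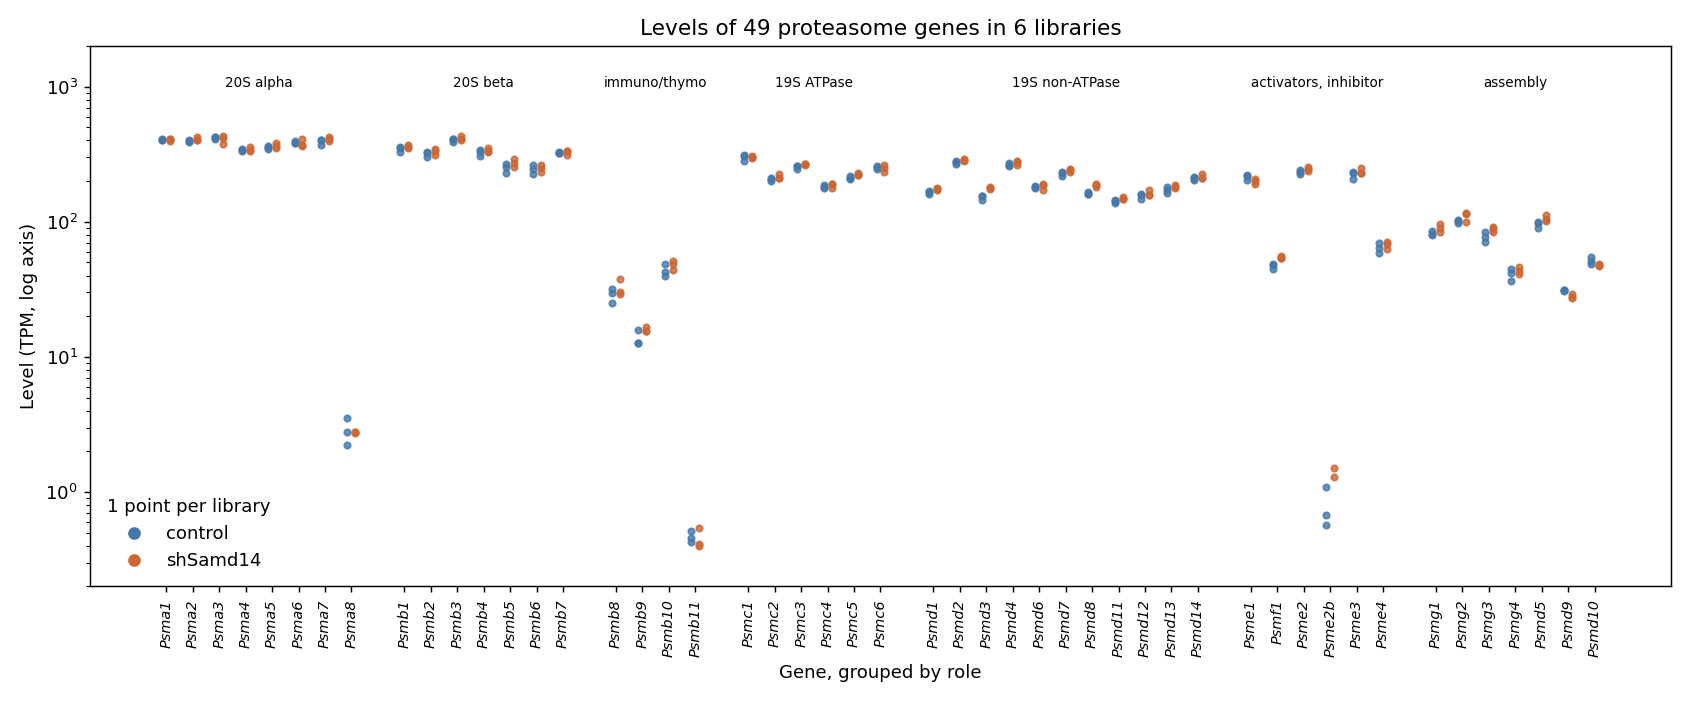
Levels of the 49 proteasome genes in TPM (log axis), grouped by role, with 1 point per library; blue is control and orange is shSamd14. The constitutive 20S and 19S genes lie between 139 and 433 TPM in every library, and the immunoproteasome, activator and assembly genes range lower; Psme2b is at 0 in 1 shSamd14 library and has no point there.

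Together the 49 genes made up 0.962 to 0.996% of all TPM in control and 0.991 to 1.02% in shSamd14 libraries. Levels of different genes are compared here in TPM, which are scaled for gene length. Psma3 was the most abundant, with a mean of 413 TPM over the 6 libraries.

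Psma1 to Psma7 had means between 342 TPM (Psma4) and 413 TPM (Psma3). Psma8, an alpha subunit that replaces Psma7 in germ cells, had 2.80 TPM. In CPM, Psma3 had 268, 280 and 272 in control and 279, 276 and 241 in shSamd14 libraries. The groups overlapped, and the lowest value was that of shSamd14 replicate 3. The log2 fold change was -0.04 (SE 0.07, edgeR adjusted p = 0.817). Psma7 had the smallest p of the ring, with 185, 215 and 213 CPM in control and 228, 213 and 198 CPM in shSamd14. Its lowest library was control replicate 1, its groups overlapped, and its log2 fold change was 0.06 (SE 0.07, adjusted p = 0.76).

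The 7 constitutive beta ring genes lay between 247 TPM (Psmb6) and 409 TPM (Psmb3), a ratio of 1.66. Over the 14 constitutive core genes of both rings the highest mean was 1.67 times the lowest. Psmb5, Psmb6 and Psmb7 carry the chymotrypsin-like, caspase-like and trypsin-like sites. Psmb5 had 110, 129 and 135 CPM in control and 149, 126 and 131 CPM in shSamd14 libraries. The groups overlapped, control replicate 1 was lowest and shSamd14 replicate 1 highest, and the log2 fold change was 0.11 (SE 0.08, edgeR adjusted p = 0.578), or 0.028 without control replicate 1. Psmb6 had 98.3, 121 and 112 CPM against 122, 105 and 109 CPM, and Psmb7 had 212, 221 and 221 CPM against 229, 221 and 202 CPM. Their log2 fold changes were 0.01 (SE 0.08) and -0.004 (SE 0.06). The structural subunit Psmb3 had 163, 180 and 179 CPM against 191, 173 and 171 CPM.

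The immunoproteasome subunits were present at a lower level. Psmb8, Psmb9 and Psmb10 had means of 30.7, 14.9 and 45.9 TPM. Psmb11, the thymus form, had 0.458 TPM. Each library's Psmb8 level was 10.3 to 13.8% of its Psmb5 level, which Psmb8 replaces. Psmb9 was at 4.79 to 6.67% of Psmb6, and Psmb10 at 12.2 to 15.8% of Psmb7. The Psmb8 share was 11.5 ± 0.851% in control and 11.9 ± 1.77% in shSamd14 (SD, n = 3 each). The Psmb9 share was 5.65 ± 0.864% and 6.42 ± 0.424%, and the Psmb10 share 13.5 ± 1.48% and 14.9 ± 1.31%. For all 3 pairs the groups overlapped.

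Psmb8 had 15.8, 19.9 and 19.3 CPM in control and 20.8, 19.3 and 22.1 CPM in shSamd14 libraries. Its control replicate 1 was the lowest and shSamd14 replicate 3 the highest. The log2 fold change was 0.18 (SE 0.10, edgeR adjusted p = 0.44). Psmb9 had 9.08, 9.63 and 10.7 CPM against 11.1, 9.64 and 11.4 CPM, and Psmb10 28.4, 36.6 and 32.1 CPM against 39.0, 32.4 and 35.1 CPM. Both had a log2 fold change of 0.13 (SE 0.12 and 0.10). Without control replicate 1 the log2 fold changes were 0.08 for Psmb8, 0.074 for Psmb9 and 0.044 for Psmb10, and over all omissions of 1 library they reached up to 0.238, 0.196 and 0.231. The interferon genes of a list chosen in the same way summed to 131 to 137 CPM in control and 124 to 141 CPM in shSamd14, and 0 of the 11 tested passed in edgeR. Isg15 had the smallest p of that list, at 0.290 to 0.666 CPM in control and 0.719 to 1.01 CPM in shSamd14 (edgeR adjusted p = 0.235).

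Psmb9 lies head to head with Tap1, a peptide transporter gene of the same antigen pathway, and overlaps it on the opposite strand. Whether strand was used in counting is not given in the sources used here, so reads of the overlap cannot be assigned to either gene. The promoters of the immunoproteasome genes are shown because these genes encode the exchangeable catalytic subunits. They run from 250 bases before to 50 bases after the annotated start (RefSeq, GRCm38.p6): Psmb8 at chr17:34197945-34198244 on the plus strand, Psmb9 at chr17:34187281-34187580 on the minus strand and Psmb10 at chr8:105938343-105938642 on the minus strand, each read 5′ to 3′ along its gene. Capitals mark a match to TGACNNNGC, to CCAAT, to the motif of GATA factors or to the core of the interferon-stimulated response element on either strand.
Psmb8 promoter: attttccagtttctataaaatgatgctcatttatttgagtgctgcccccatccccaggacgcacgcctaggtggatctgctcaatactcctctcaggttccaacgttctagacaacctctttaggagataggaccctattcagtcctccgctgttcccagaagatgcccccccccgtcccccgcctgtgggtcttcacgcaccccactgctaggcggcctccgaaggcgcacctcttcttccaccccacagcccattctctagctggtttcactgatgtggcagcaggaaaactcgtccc
Psmb9 promoter: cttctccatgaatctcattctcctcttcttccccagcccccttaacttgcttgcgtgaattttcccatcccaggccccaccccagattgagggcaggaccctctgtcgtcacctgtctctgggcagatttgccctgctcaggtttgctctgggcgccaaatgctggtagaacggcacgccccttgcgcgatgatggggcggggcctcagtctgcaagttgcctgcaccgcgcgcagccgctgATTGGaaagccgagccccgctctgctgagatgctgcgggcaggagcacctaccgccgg
Psmb10 promoter: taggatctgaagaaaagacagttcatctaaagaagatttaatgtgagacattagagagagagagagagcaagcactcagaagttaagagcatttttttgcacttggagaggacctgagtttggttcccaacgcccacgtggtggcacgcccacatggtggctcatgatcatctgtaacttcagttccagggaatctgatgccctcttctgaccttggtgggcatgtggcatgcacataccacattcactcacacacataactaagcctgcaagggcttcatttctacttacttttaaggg
The only match to these strings in the 3 windows was a CCAAT box, the motif of the factor NF-Y, in Psmb9, where it reads on the opposite strand. No match says only that these letters are not in the window. Of the GATA motif only AGATAA was searched, and the Psmb8 window holds AGATAG, another form.

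Of the 50 genes, 42 had a RefSeq promoter entry. Psma8, Psmb1, Psmb2, Psmb7, Psmc3, Psmd3, Psmd7 and Psmg2 had none. The NF-Y motif was in the window of 15 of the 42, or 35.7%, against 41.1% of all 27025 genes with an entry. AGATAA, a form of the motif of GATA factors, was in 3, or 7.14%, against 12.7%. The interferon-stimulated response element core was in 5 (Psmb3, Psmd4, Psmd9, Psme1 and Psmg4), or 11.9%, against 3.99%.

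TGACNNNGC, the core of the antioxidant response element that Nrf1 (Nfe2l1) binds, is the motif best known from proteasome genes: Nrf1 raises their transcription when the proteasome is impaired. It was in 6 of the 42 windows, or 14.3%, against 14.0% of all genes with an entry. The 6 sites are shown with up to 10 bases on each side, read 5′ to 3′ on the strand that holds the motif, in capitals: Psmb5 at chr14:54618024-54618052 (minus strand), Psmb6 at chr11:70525338-70525366 (plus), Psmc6 at chr14:45329587-45329615 (minus), Psmd12 at chr11:107479278-107479299 (minus), Psmd9 at chr5:123228149-123228177 (plus) and Psme4 at chr11:30771758-30771786 (minus), all GRCm38.p6.
Psmb5 promoter site: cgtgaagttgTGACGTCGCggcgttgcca
Psmb6 promoter site: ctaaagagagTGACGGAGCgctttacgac
Psmc6 promoter site: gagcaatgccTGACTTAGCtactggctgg
Psmd12 promoter site: ggggcaaatgTGACACAGCaga
Psmd9 promoter site: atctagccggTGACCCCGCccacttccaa
Psme4 promoter site: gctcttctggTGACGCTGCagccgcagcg
The sites of Psmb5, Psmb6, Psmd9 and Psme4 began within 47 bases before the RefSeq start of the gene. Those of Psmc6 and Psmd12 began 227 and 247 bases before it. In GENCODE M21, Psmd9 starts at chr5:123169413 and Psme4 at chr11:30771726, so that the sites of Psmd9 and Psme4 lie inside the gene. The log2 fold changes of the 6 genes ran from -0.16 (Psmd9) to 0.11 (Psmb5). Nfe2l1 itself had 70.9, 73.5 and 66.0 CPM in control and 66.5, 65.4 and 66.7 CPM in shSamd14, so its groups overlapped (edgeR adjusted p = 0.595).

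The 19S ATPases Psmc1 to Psmc6, which form the unfolding ring, lay between 184 TPM (Psmc4) and 302 TPM (Psmc1). Psmc1 had 266, 284 and 258 CPM in control and 277, 269 and 257 CPM in shSamd14. The groups overlapped and the log2 fold change was -0.01 (SE 0.06). Psmc5 had the smallest p of the ring, with 154, 172 and 166 CPM against 173, 170 and 169 CPM and a log2 fold change of 0.06 (SE 0.06, edgeR adjusted p = 0.712). Across the ring the log2 fold changes ran from -0.03 to 0.06.

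The 11 other subunits of the 19S particle, which form its lid and base scaffold, lay between 145 TPM (Psmd11) and 280 TPM (Psmd2). All 11 had a positive log2 fold change, with a median of 0.04, but 0 passed. Psmd2, a large scaffold subunit of the base, had 483, 500 and 482 CPM in control and 513, 502 and 496 CPM in shSamd14, a log2 fold change of 0.04 (SE 0.06) with overlapping groups. Psmd3, a lid subunit, had the smallest p of all proteasome genes. It had 179, 199 and 197 CPM in control and 235, 216 and 215 CPM in shSamd14, so that all 3 shSamd14 libraries lay above all 3 control libraries. The means were 191 ± 11.2 and 222 ± 11.5 CPM (SD, n = 3 each), 1.16-fold with a 95% interval of 1.06- to 1.28-fold, and the edgeR adjusted p was 0.108.

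Psmd8, another lid subunit, had 126, 133 and 137 CPM in control and 158, 151 and 142 CPM in shSamd14. These groups did not overlap either. The means were 132 ± 5.39 and 151 ± 7.66 CPM (SD, n = 3 each), 1.14-fold with a 95% interval of 1.041- to 1.249-fold, and the edgeR adjusted p was 0.142. Without shSamd14 replicate 1 the unadjusted p of Psmd8 was no longer under 0.05, while that of Psmd3 stayed under it without each library in turn.

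The activators of the core are alternative caps, and Psmf1 (PI31) was first described as an inhibitor of the core. Psme1 and Psme2, whose products form the interferon-inducible PA28 cap, had means of 207 and 240 TPM. Psme3, the nuclear form, had 230 TPM, and Psme4, the PA200 cap, 65.7 TPM. Psme1 had 115, 127 and 125 CPM in control and 117, 119 and 117 CPM in shSamd14. Psme2 had 114, 125 and 122 CPM against 126, 119 and 119 CPM. Both genes overlapped between groups, with log2 fold changes of -0.06 and 0.01 (SE 0.06 each). Psme1 overlaps Emc9 on the opposite strand. Psme2b, a copy of Psme2, was listed between 0 and 16.8 estimated counts and shares sequence with Psme2, so its value is uncertain.

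Psmf1 had 46.7, 52.9 and 53.0 CPM in control and 61.7, 58.2 and 54.5 CPM in shSamd14. The groups did not overlap. The means were 50.9 ± 3.65 and 58.1 ± 3.56 CPM (SD, n = 3 each), 1.14-fold with a 95% interval of 1.03- to 1.27-fold, and the edgeR adjusted p was 0.213. The promoters of Psmd8 (chr7:29180624-29180923, minus strand) and Psmf1 (chr2:151741261-151741560, minus strand; RefSeq, GRCm38.p6) are shown because, after Psmd3, these genes had the smallest p of the proteasome genes. Capitals mark the same strings as before.
Psmd8 promoter: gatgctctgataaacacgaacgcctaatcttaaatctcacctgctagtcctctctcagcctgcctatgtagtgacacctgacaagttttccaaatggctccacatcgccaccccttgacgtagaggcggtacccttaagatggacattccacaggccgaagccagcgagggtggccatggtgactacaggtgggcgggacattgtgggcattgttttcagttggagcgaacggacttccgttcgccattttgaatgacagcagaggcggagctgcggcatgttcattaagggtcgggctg
Psmf1 promoter: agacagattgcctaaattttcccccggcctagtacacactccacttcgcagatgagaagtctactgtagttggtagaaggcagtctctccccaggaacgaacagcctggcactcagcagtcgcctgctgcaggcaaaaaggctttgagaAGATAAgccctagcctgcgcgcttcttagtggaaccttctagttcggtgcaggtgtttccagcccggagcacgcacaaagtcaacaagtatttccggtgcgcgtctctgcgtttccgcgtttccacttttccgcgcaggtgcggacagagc
Psmd8 held none of the 4 searched strings in this window and Psmf1 held AGATAA. Other forms of the GATA motif were not searched, and the Psmd8 window holds TGATAA.

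Assembly chaperones build the rings and leave before the complex is complete. Psmg1 to Psmg4 guide the alpha ring, and Psmd5, Psmd9 and Psmd10 guide the ATPase ring of the 19S base. Their means lay between 29.6 TPM (Psmd9) and 105 TPM (Psmg2). The 19S chaperones were split in sign. Psmd5 had 112, 109 and 117 CPM in control and 125, 128 and 118 CPM in shSamd14, 1.10-fold with a 95% interval of 1.002- to 1.197-fold (edgeR adjusted p = 0.322). The highest control and the lowest shSamd14 library of Psmd5 were 117.3 and 117.7 CPM, so that the groups were only just apart. Psmd5 overlaps Cutal on the opposite strand.

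Psmd9 had 46.4, 49.9 and 49.1 CPM in control and 46.1, 43.0 and 41.2 CPM in shSamd14, 0.896-fold with a 95% interval of 0.809 to 0.992 (edgeR adjusted p = 0.282). Psmd10 (gankyrin) had 44.2, 41.3 and 43.7 CPM against 41.1, 39.0 and 39.1 CPM, 0.923-fold (adjusted p = 0.456). For both, the shSamd14 libraries lay below the control libraries, but the nearest pairs were close, at 46.08 and 46.37 CPM for Psmd9 and 41.13 and 41.29 CPM for Psmd10. Psmd9 overlaps Hpd on the opposite strand. Of the alpha ring chaperones, Psmg3 had 33.0, 41.4 and 37.5 CPM in control and 45.1, 41.7 and 38.8 CPM in shSamd14, with a log2 fold change of 0.16 (SE 0.09), or 0.081 without control replicate 1. Psmg2, the most abundant, had 57.4, 64.3 and 62.5 CPM against 71.1, 69.7 and 58.4 CPM. Psmg1 and Psmg2 had log2 fold changes of 0.13 and 0.11 (SE 0.08 each), or 0.051 and 0.052 without shSamd14 replicate 1, and their groups overlapped, as did those of Psmg3.

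**Figure D2:**
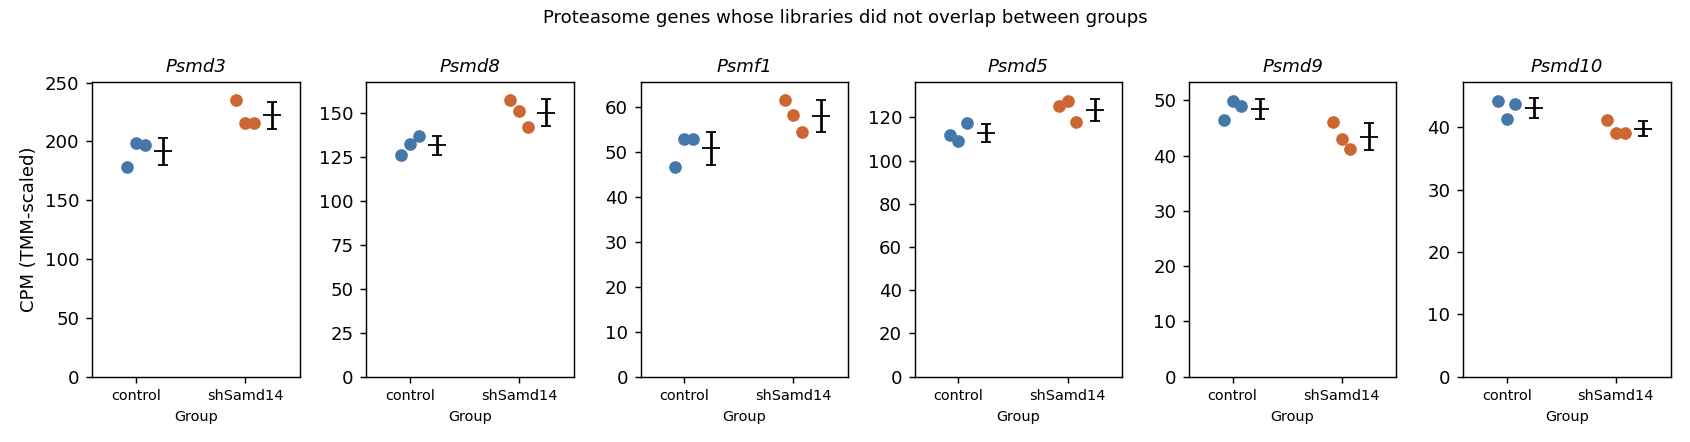
TMM-scaled CPM of the 6 proteasome genes whose control (blue) and shSamd14 (orange) libraries did not overlap, with 1 point per library and the mean and SD of 3 libraries in black. Psmd3, Psmd8, Psmf1 and Psmd5 lie higher and Psmd9 and Psmd10 lower in shSamd14, with adjusted p between 0.108 and 0.456.

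The number of genes whose groups did not overlap depended on the scale. In CPM, 4 of the 49 genes lay wholly higher in shSamd14, against 10.5% of all tested genes, and 2 lay wholly lower, against 10.2%. On the TPM scale 9 lay wholly higher, with Psmd1, Psmd2, Psmd11, Psmc3 and Psmc5 added, and 2 wholly lower, against 11.5% and 7.30% of all tested genes. Psmc3ip, which is no proteasome gene, had 16.7, 19.2 and 17.8 CPM in control and 16.6, 16.8 and 15.9 CPM in shSamd14, with a log2 fold change of -0.12 (SE 0.09).

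**Figure D3:**
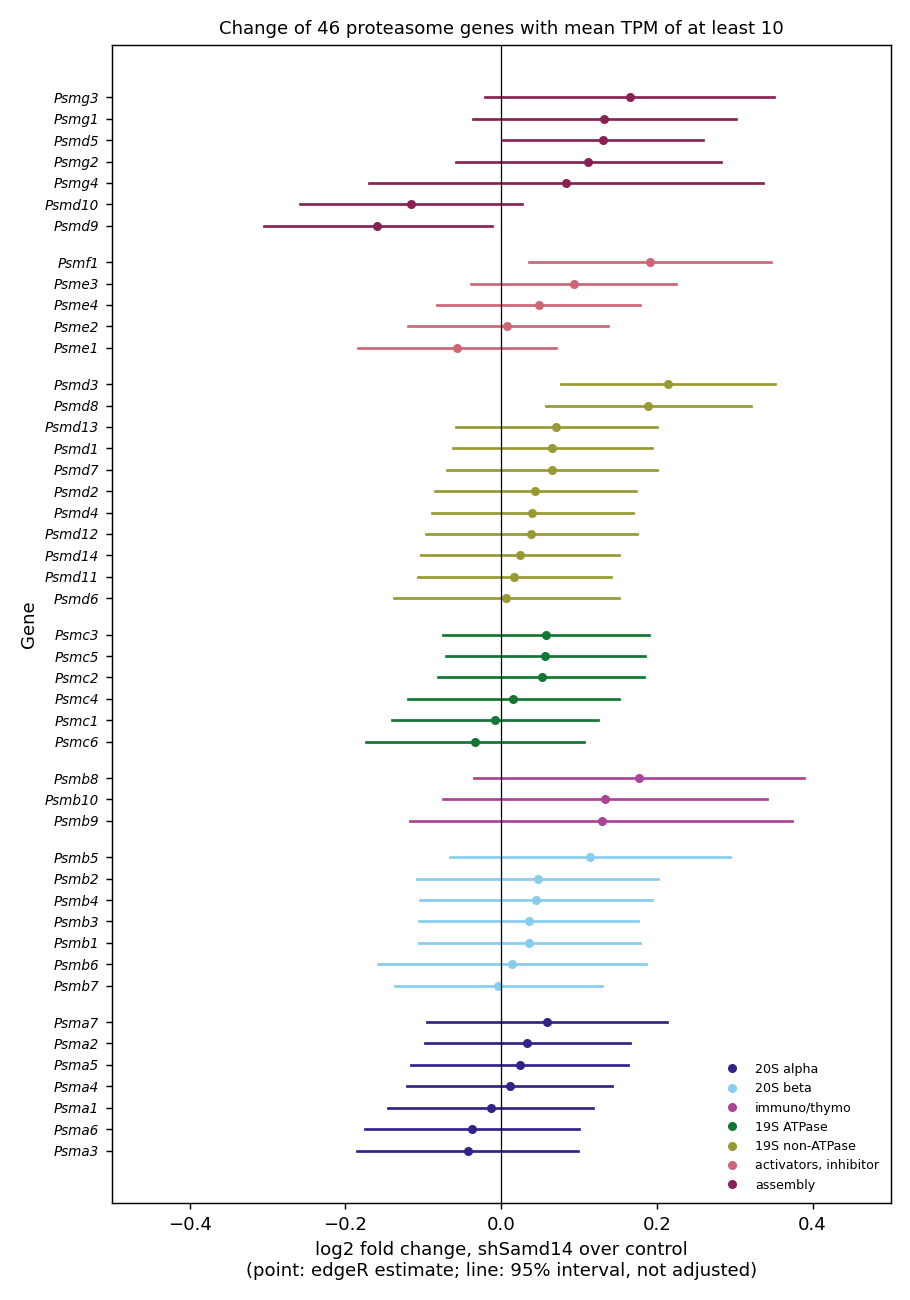
The log2 fold change of shSamd14 over control for the 46 proteasome genes with a mean of at least 10 TPM, coloured by role; points are edgeR estimates and lines are 95% intervals that are not adjusted for the number of genes. The estimates lie between -0.16 (Psmd9) and 0.21 (Psmd3), and no interval passes 1.31-fold.

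The proteasome genes were low or high together in single libraries. In control replicate 1, 30 of the 46 genes with at least 10 TPM had their lowest CPM of the 6 libraries, and in shSamd14 replicate 3 a further 10 did. In shSamd14 replicate 1, 26 genes had their highest value. The median deviation from the gene's own mean, on the log2 scale, was -0.09 in control replicate 1, 0.04 and 0.01 in control replicates 2 and 3, 0.08 and 0.03 in shSamd14 replicates 1 and 2, and -0.04 in shSamd14 replicate 3. Other genes with a mean of at least 100 TPM had medians of -0.042, 0.044 and 0.007 in control replicates 1 to 3. In shSamd14 replicates 1 to 3 these were 0.044, 0.007 and -0.062. Control replicate 1 was thus low and shSamd14 replicate 1 high among other abundant genes too. The order differed, however: shSamd14 replicate 3 was the lowest of these, and control replicate 2 was as high as shSamd14 replicate 1.

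**Figure D4:**
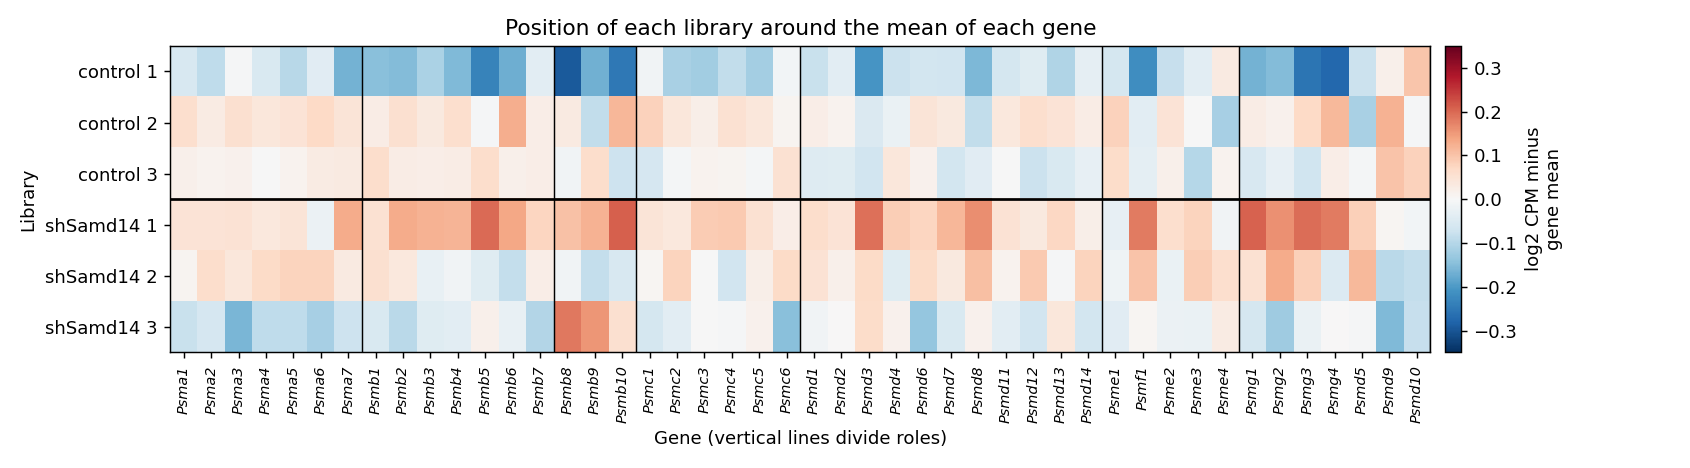
Log2 CPM of each library minus the mean of the gene over the 6 libraries, for 46 proteasome genes with a mean of at least 10 TPM; red is above and blue below the gene's mean, and the thick line divides control from shSamd14. Control replicate 1 is below the mean for most genes and shSamd14 replicate 1 above it, while in shSamd14 replicate 3 Psmb8 and Psmb9 are above their mean and most core genes below theirs.

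By role, the alpha ring summed to 1618, 1755 and 1715 CPM in control and 1754, 1757 and 1587 CPM in shSamd14 libraries. The beta ring summed to 1117, 1263 and 1256 CPM against 1325, 1227 and 1183 CPM. The 19S particle summed to 3496, 3741 and 3626 CPM against 3870, 3769 and 3620 CPM. For all 3 sums the groups overlapped in CPM. In TPM the 2 rings overlapped as well, but the 19S sums did not, at 3507, 3568 and 3469 TPM in control and 3676, 3701 and 3639 TPM in shSamd14, 4.47% higher in the mean. In CPM the mean sum of shSamd14 was 0.191% higher for the alpha ring, 2.72% higher for the beta ring and 3.64% higher for the 19S particle than that of control. Over all 49 genes the sums were 7495, 8070 and 7900 CPM in control and 8331, 8116 and 7694 CPM in shSamd14, again with overlap. The sums of the activators and Psmf1 did not overlap in CPM, at 861, 873 and 868 against 909, 915 and 878, but did in TPM, at 792, 801 and 760 against 786, 815 and 818. The assembly chaperone sums did not overlap in TPM, at 468.7, 486.1 and 481.9 against 526.5, 521.5 and 491.7, 7.17% higher in the mean. In CPM they did, at 348.6, 371.1 and 371.7 against 401.3, 386 and 356.4. The immunoproteasome and thymus genes summed to 54.5, 67.2 and 63.2 CPM against 72.3, 62.4 and 69.5 CPM. Their mean sum was 10.4% higher in CPM, and the groups overlapped in CPM and in TPM.

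The log2 fold change was positive for 38 of the 49 genes, or 77.6%, against 51.6% of all tested genes, with a median of 0.04 against 0.01. Of the 1555 tested genes with a mean of at least 100 TPM, 47.2% were positive, with a median of -0.006. The median of the 49 genes moved with single libraries. It was 0.005 without control replicate 1, where 15 genes changed sign, and 0.009 without shSamd14 replicate 1, where 12 did. It was 0.08 without control replicate 2 (3 changed sign) and 0.067 without shSamd14 replicate 3 (8 changed sign), and 0.052 and 0.045 without control replicate 3 and shSamd14 replicate 2 (0 and 5 changed sign).

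Genes that act with the proteasome were taken from lists chosen with earlier results of these data known. Of all tested genes, 2.58% passed the threshold in either direction. Of 10 tested partners without a Psm symbol (among them the ubiquitin receptor Adrm1, the small 19S subunit Sem1, the assembly factor Pomp and the deubiquitinase Usp14), 0 passed in edgeR, and Zfand5, a proteasome activator, had the smallest p of these (90.7 ± 5.98 and 100 ± 6.67 CPM; SD, n = 3 each). Of 11 genes of the Nrf1 axis, 1 passed: Ufd1, a cofactor of the segregase p97 that delivers ubiquitinated proteins to the proteasome. Ufd1 had 49.9, 53.1 and 51.5 CPM in control and 64.5, 65.3 and 61.4 CPM in shSamd14, with no overlap. It rose 1.24-fold (0.31 on the log2 scale, SE 0.06; edgeR adjusted p = 0.017). Without control replicates 1 or 3, or shSamd14 replicates 1 or 2, its adjusted p was 0.0532 to 0.101, with log2 fold changes of 0.28 to 0.30.

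Of 12 genes that supply ubiquitin or carry it to the proteasome, Uba6 alone passed. Uba6 encodes an enzyme that activates ubiquitin and the ubiquitin-like FAT10. It had 63.7, 64.6 and 52.3 CPM in control and 44.1, 47.7 and 40.7 CPM in shSamd14, and all shSamd14 libraries lay below all control libraries. It fell to 0.733 of the control level (-0.45 on the log2 scale, SE 0.09; edgeR adjusted p = 0.0152). Without control replicate 1 its adjusted p was 0.0808, and with limma on log2(TPM + 1) it was 0.0694.

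Of 10 tested genes of MHC class I antigen processing, the pathway fed by the proteasome, B2m alone passed. B2m, the light chain of class I molecules, had 374, 358 and 394 CPM in control and 301, 308 and 302 CPM in shSamd14. It fell to 0.809 of the control level (-0.31 on the log2 scale, SE 0.06; edgeR adjusted p = 0.0152). Without control replicate 3 or shSamd14 replicate 2 its adjusted p was 0.0516 and 0.0737. The class I heavy chain genes did not pass: H2-D1 had 156, 161 and 168 CPM in control and 188, 171 and 177 CPM in shSamd14, all higher, and H2-K1 had 166, 167 and 167 CPM against 176, 160 and 162 CPM, with overlap (edgeR adjusted p = 0.273 and 0.976). Tap1 had 53.1 ± 2.34 and 53.8 ± 3.42 CPM (SD, n = 3 each).

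Words of 7 bases that a search of earlier results of these data had linked to the direction of change were looked up in the longest annotated 3′ UTR. CTGATTA or TGATTAA was in 2 of the 48 proteasome-symbol genes with a 3′ UTR of at least 50 bases (Psma3 and Psmd1), or 4.17%, against 14.98% of tested genes. CAAGTGT or AAGTGTA was in 4 (Psma6, Psmd1, Psmd5 and Psmd9), or 8.33%, against 22.7%. The median length of these UTRs was 479 bases in the proteasome-symbol genes and 1376 bases in all tested genes. Ufd1 held a word of the first pair, Uba6 held one of the second, and B2m held none. The words were found in the same data in which these genes were called, so these matches test no link.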

How the data were processed

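Polyadenylated RNA of 3 control and 3 shSamd14 libraries was analysed. Per the submitters' processing notes the build was mm10 and the tools were RSEM 1.2.15, Bowtie 1.0.1 and CASAVA 1.8.2, with no roles or settings. Annotation, strand use and hairpin sequences are not stated in the sources used here. Per the file headers, the authors deposited expected counts per gene, in which RSEM shares a read that maps to several genes between them, with TPM and FPKM (not used here) and gene lengths; length and effective length are equal. Each of the 50 proteasome-symbol genes had an expected count that was not whole (tolerance 0.005) in at least 1 library, so some reads were shared with other genes. Overlaps with protein-coding genes are not all named above. Among others, Psmb7 overlaps Nek6, Psmc3 overlaps Slc39a13 and Psmc3ip overlaps Mlx, each on the opposite strand. Psmg3 overlaps Gm26938 on the same strand, and Psmd1 overlaps Gm21972 on the same and Htr2b on the opposite strand.

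IDs were paired with symbols, types and coordinates from GENCODE M21 (GRCm38, the assembly of mm10). Counts were rounded and tested with edgeR 4.0.16 (R 4.3.3): filterByExpr (minimum count 10, minimum total 15), TMM factors, robust dispersions, two-sided quasi-likelihood test, Benjamini-Hochberg adjustment over 12670 genes, threshold 0.05. Standard errors were derived from the F statistic and the fold change, and 95% intervals use the t quantile of the total degrees of freedom. Levels are given as deposited TPM (between genes) or TMM-scaled CPM (between libraries); 3 counts equal 0.111 to 0.145 CPM, and precision covers counting and library error only. The fit was tested on simulated data. No library was a copy of another: within groups, pairs had a chi-square of 5.74 to 12.3 for each gene, where sampling noise alone gives about 1. The genes, roles, lists, motifs and tests were chosen with earlier results of these data known. Named with values are genes past the threshold, the smallest p and highest level of each role, and the catalytic subunits; further proteasome genes were named after their values were seen. Alternatives were other size factors and filters, a replicate block, DESeq2 1.42.0, limma 3.58.1 on TPM, and leaving out each library.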

Additional observations from a re-analysis of the deposited data

How the results depend on the processing

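None of the 14 alternatives called a proteasome gene, and the lowest adjusted p of any proteasome gene in them was 0.056 (Psmd3, with the replicate block). Over all genes, 682 passed with the replicate block, 168 with limma on log2(TPM + 1) and 128 (without shSamd14 replicate 2) to 283 when each library was left out in turn, against 327; limma on log2(TPM + 0.1) called 170, and DESeq2, the other size factors and the other filters 321 to 488. The deviations of same-numbered libraries from the group means correlated at -0.092, 0.219 and 0.38. The value of replicates 3 was the highest of all pairs, while control replicate 2 correlated best with shSamd14 replicate 1. The labels do not say whether same-numbered libraries belong together, so pairing cannot be told from these values. Of 419 fold changes of 30 genes under the alternatives, 393 kept direction and side of the threshold, 9 lost the threshold (Ufd1, Uba6 and B2m) and 17 reversed, in 7 proteasome genes whose change was small; the cause was not tested. Leaving out each library gave log2 fold changes of -0.011 to 0.104 for Psma7, -0.088 to 0.018 for Psma3, -0.027 to 0.062 for Psmb3, -0.068 to 0.084 for Psmb6, -0.051 to 0.041 for Psmb7, -0.045 to 0.031 for Psmc1 and -0.033 to 0.034 for Psme2. With limma on log2(TPM + 1) and on log2(TPM + 0.1), Psmb7 was at 0.006 and Psmc1 at 0.004. With limma, Uba6 had adjusted p of 0.0694 and 0.0692. Depth limits Psma8, Psmb11 and Psme2b, which were too low for a narrow interval.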
